A study of Mus musculus with 2 samples.

Results

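The miR-99/100 and miR-125 genes of the mouse are 6 microRNA (miRNA) hairpin genes at 3 loci, and they were followed in 2 small RNA libraries of embryonic stomach. The members were named by symbol, Mir99a, Mir100, Mir99b, Mir125b-2, Mir125b-1 and Mir125a, and all 6 were found among the 1973 genes of the count tables. The tables list them by Ensembl identifier, Mir99a as ENSMUSG00000065530, Mir100 as ENSMUSG00000093011, Mir99b as ENSMUSG00000065396, Mir125b-2 as ENSMUSG00000065472, Mir125b-1 as ENSMUSG00000093354 and Mir125a as ENSMUSG00000065479. Each library was made from stomachs of healthy B6NCrl embryos at embryonic day 16.5, with males and females pooled, and RNA under 30 nucleotides was sequenced. Replicate 2 came from 41 embryos, and the number behind replicate 1 is not given in the labels. The 2 libraries form 1 group with no treatment, mutant or second tissue, so the comparisons below are between genes and between the libraries. Both libraries carry the same donor label, and the spread between them is that of 2 pools of one strain.

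A miRNA is cut from a hairpin precursor as a short RNA, usually with a more abundant arm on one side, and it pairs with target messages mainly through its seed, bases 2 to 8 from its 5′ end. In animals the miR-100, let-7 and miR-125 hairpins lie together in an old genomic cluster, and mammals carry several copies of it, each starting with a miR-99 or miR-100 hairpin. The miR-125 miRNAs are the mammalian relatives of lin-4, which with let-7 times development in Caenorhabditis elegans. The miR-99/100 miRNAs are known as repressors of the growth regulator mTOR.

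The mature arms show how the genes group and where their reads can be told apart. The 5′ arms are shown from the RefSeq annotation of GRCm38.p6, with the seed in capitals, and all 6 members had an entry there.
miR-99a-5p: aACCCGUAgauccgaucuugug
miR-100-5p: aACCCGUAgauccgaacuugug
miR-99b-5p: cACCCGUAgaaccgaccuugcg
miR-125b-5p: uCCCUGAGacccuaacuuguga
miR-125a-5p: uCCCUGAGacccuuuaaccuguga
miR-351-5p: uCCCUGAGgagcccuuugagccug
miR-10a-5p: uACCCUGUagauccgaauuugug

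Mir99a, Mir100 and Mir99b shared one seed, and no other gene in the RefSeq table had it. Mir125a, Mir125b-1 and Mir125b-2 shared a second seed with 3 genes outside the family, Mir351, Mir6367 and Mir6394. The miR-99/100 seed contains a CG dinucleotide, as did 13.1% of the 1674 distinct mature miRNAs in that table, and the miR-125 seed does not. With positions counted from 1 at the 5′ end of miR-99a-5p, miR-100-5p differs from it by U16A alone. Against the same reference, miR-99b-5p differs by A1C, U11A, U16C and U21C. The 5′ arms of miR-125b and miR-125a share their first 13 bases, while miR-125b and miR-351 share their first 8. miR-10a-5p, of the Hox-cluster miRNAs, lies 3 single-base edits from miR-100-5p, but its bases 2 to 8 differ.

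Mir125b-1 and Mir125b-2 produce the same 5′ arm, which bears on every count of these 2 genes. The hairpin of Mir125b-1 is printed to show where that arm lies, as the GENCODE M21 transcript on GRCm38, 5′ to 3′ on the plus strand, with both mature arms in capitals.
Mir125b-1, chr9:41581926-41582002: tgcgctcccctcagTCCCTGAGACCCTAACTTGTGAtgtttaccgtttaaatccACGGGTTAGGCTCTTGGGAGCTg

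The longest stretch common to the hairpins of Mir125b-1 and Mir125b-2 was 24 bases, and it holds the whole 5′ arm. Their 3′ arms differ from each other. In a search of 2202 annotated miRNA hairpins, miR-125b-5p was found in 2, and each of these 3′ arms in 1. For the other 4 members both arms were found in 1 hairpin each. Mir99a and Mir100 shared a stretch of at most 16 bases, although with 1 mismatch allowed the 5′ arm of each also matched the other. How many mismatches the authors' alignment allowed is not given in the sources used here.

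Reads placed in several positions were a total of their own in the deposited tables, 3944541 in replicate 1 and 4015646 in replicate 2, and from this separate total they are taken to be in no gene's count. Mir125b-1 and Mir125b-2 together were counted with 9628 reads in replicate 1 and 8972 in replicate 2. How many of the reads placed in several positions belong to miR-125b was not tested, so the counts of these 2 genes are uncertain and their place below the other members holds for counted reads only. Counts belong to whole hairpins, so counted reads of the 5′ and 3′ arms were added together. Mir125b-1 and Mir125b-2 share the whole 5′ arm, so reads of that arm fit both hairpins. How far the counts of these 2 genes rest on their 3′ arms was not tested. The seed groups below are sums of genes named by the 5′ arm, and they include any counted 3′ arm reads, whose seeds differ.

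Sense-assigned reads numbered 7734578 in replicate 1 and 7983714 in replicate 2, which were 49.1% and 50.0% of all reads. A floor of 3 reads was set as an approximate limit for a count of 0. It equals 0.388 counts-per-million (CPM) of sense-assigned reads in replicate 1 and 0.376 CPM in replicate 2. Without molecular identifiers, which no source used here records, such floors and all intervals below hold for counting error alone. The profile was checked against marker miRNA genes of stomach cell types. Both smooth muscle markers, all 5 epithelial markers, both markers of stratified epithelium, all 4 of gastrointestinal epithelium and the endothelial and endocrine markers reached 10 CPM in both libraries, as did 3 of 4 mesenchymal markers. Markers of other cell types also had reads. Striated muscle markers held 0.336% of sense-assigned reads in replicate 1 and 0.0202% in replicate 2, with 2 of the 8 genes that have a row at 10 CPM in both libraries and Mir133a-1 and Mir133a-2 at 0. Erythroid markers held 0.122% in replicate 1 and 0.0577% in replicate 2, with both genes at 10 CPM. The liver marker held 0.182% in replicate 1 and 0.121% in replicate 2, and the 2 leukocyte markers with a row held 0.128% in replicate 1 and 0.119% in replicate 2. The leukocyte marker Mir142 has no row. Reads opposite to Mir142b numbered 12186 in replicate 1 and 8444 in replicate 2 and are not in the leukocyte share, which may therefore be too low. Neuronal markers held 0.140% in replicate 1 and 0.113% in replicate 2. Of the 6 genes that have a row, 1 was at 10 CPM in both libraries, and Mir124a-1, Mir124a-2 and Mir124a-3 were at 0. Marker shares hold for counted reads only, so a count of 0 here does not show absence. How many of the reads placed in several positions belong to marker genes was not tested.

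All 6 members were detected well above that floor, at 10 CPM or more in both libraries, a level reached by 14.0% of the 1973 genes. In replicate 1 the family held 683390 reads, or 8.84% of sense-assigned reads (exact Clopper-Pearson 95% interval 8.82% to 8.86%). In replicate 2 it held 703074 reads, or 8.81% (8.79% to 8.83%). The miR-99/100 seed group supplied most of this, 8.09% in replicate 1 and 8.40% in replicate 2. The miR-125 seed group held 0.743% in replicate 1 and 0.406% in replicate 2. The reads of the miR-99/100 genes were 10.9 times those of the miR-125 genes in replicate 1 and 20.7 times in replicate 2. How far uncounted miR-125b reads would change these ratios was not tested.

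Mir99a, the first hairpin of the chromosome 16 locus, had 487732 reads in replicate 1 and 517538 in replicate 2. Its level was 63059 CPM in replicate 1 and 64824 CPM in replicate 2, a mean of 63941 ± 1248 (SD, n = 2). By counted reads this was the second highest level of all genes with a row in each library. Mir99a alone made up 71.4% of the family's reads in replicate 1 and 73.6% in replicate 2. Mir99b, the first hairpin on chromosome 17, stood at 12120 and 13259 CPM in replicates 1 and 2 (12690 ± 805, SD, n = 2) and ranked 20. Mir100, the first hairpin on chromosome 9, stood at 5742 CPM in replicate 1 and 5920 CPM in replicate 2 (5831 ± 126) and ranked 32. The 3 genes of this seed group were ordered alike in both libraries, with gaps larger than their spread. Mir99a, which differs from Mir100 by a single base in the 5′ arm, had 10.98 times its reads in replicate 1 and 10.95 times in replicate 2.

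Mir125a, the last hairpin of the chromosome 17 locus, had 47873 reads in replicate 1 and 23443 in replicate 2. This gave 6189 CPM in replicate 1 and 2936 CPM in replicate 2, a mean of 4563 ± 2300.3 (SD, n = 2), with rank 32 in replicate 1 and rank 52 in replicate 2. Mir125a was the member with the widest spread, with an SD above that of Mir99a despite its far lower level, and its order against Mir100 changed between the libraries. Mir125b-2 had 5338 reads or 690.1 CPM in replicate 1 and 5207 reads or 652 CPM in replicate 2 (671 ± 26.8 CPM). Mir125b-1 had 4290 reads or 555 CPM in replicate 1 and 3765 reads or 472 CPM in replicate 2 (513 ± 58.7 CPM). The counted reads of Mir125b-2 were 1.24 times those of Mir125b-1 in replicate 1 and 1.38 times in replicate 2, a gap above the larger of their SDs.

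**Figure D1:**
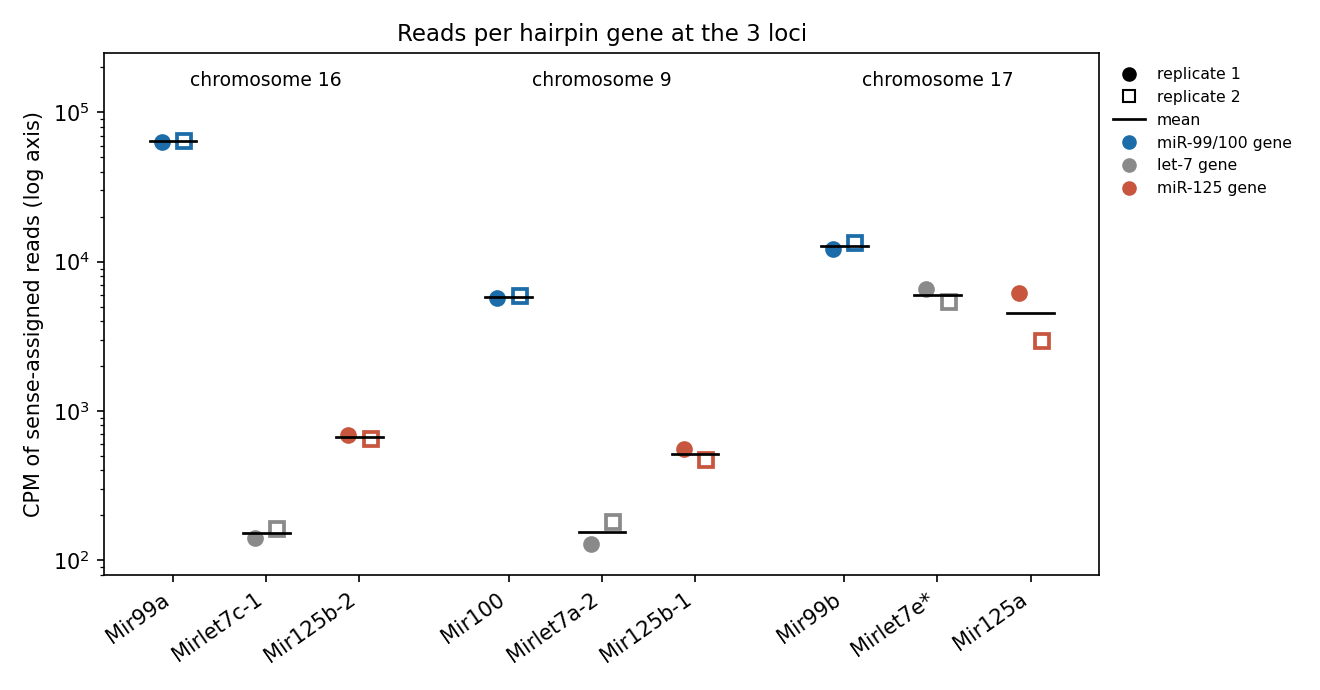
Level of each hairpin gene in CPM of sense-assigned reads (log axis) at the 3 loci, with filled circles for replicate 1, open squares for replicate 2 and a bar at the mean. Mir99a stands highest at about 63941 CPM, the libraries lie close together for 5 of the 6 members, and Mir125a alone is spread, at 6189 CPM in replicate 1 and 2936 CPM in replicate 2. The asterisk marks Mirlet7e, drawn from reads opposite to Gm25927 because it has no row of its own.

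Since annotated hairpins differ in length, from 65 bases for Mir99a to 80 for Mir100, the order was also taken per kilobase of hairpin. Mir99a stood at 983714 ± 19207 CPM per kilobase (SD, n = 2) and Mir99b at 181279 ± 11507. Mir100 and Mir125a followed at 72889 ± 1571 and 67102 ± 33828, and again did not differ beyond the spread of Mir125a. Mir125b-2 stood at 9453 ± 378 and Mir125b-1 at 6664 ± 763. The order of the 6 members was the same on both scales.

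Each locus runs in the same direction, a miR-99 or miR-100 hairpin first, then a let-7 hairpin and last a miR-125 hairpin, all on the plus strand of GRCm38. On chromosome 16 Mir99a lies at 77598936-77599000, Mirlet7c-1 follows after 656 bases, and Mir125b-2 at 77646273-77646343 after another 46522 bases. All of them lie in an intron of the non-coding host Mir99ahg. On chromosome 9 Mir100 lies at 41531425-41531504, Mirlet7a-2 follows after 5211 bases, and Mir125b-1 at 41581926-41582002 after another 45114 bases. These 3 lie in introns of the non-coding genes 3110039I08Rik and Gm49317, and Mir125b-1 also lies in an exon of Gm28119. The chromosome 17 locus is compact and spans 692 bases in all, inside the protein-coding gene Spaca6. There Mir99b lies at 17830188-17830257 in an intron, Mirlet7e follows after 94 bases, and Mir125a at 17830812-17830879 after 367 more, partly in an exon of a Spaca6 transcript.

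The chromosome 16 members held 72.2% of the family's reads in replicate 1 and 74.4% in replicate 2. The chromosome 17 members held 20.7% in replicate 1 and 18.4% in replicate 2, and those on chromosome 9 held 7.13% in replicate 1 and 7.26% in replicate 2. As summed levels these were 64613 ± 1222, 17252 ± 1495 and 6344 ± 67.0 CPM (SD, n = 2), so the loci were ordered alike in both libraries and their gaps exceeded the spread. At every locus the first hairpin had more counted reads than the last in both libraries. On chromosome 16 Mir99a had 91.4 and 99.4 times the reads of Mir125b-2 in replicates 1 and 2, a mean ratio of 95.4 ± 5.67 (SD, n = 2). On chromosome 9 Mir100 had 10.4 times the reads of Mir125b-1 in replicate 1 and 12.6 times in replicate 2 (11.5 ± 1.56). On chromosome 17, where no arm of a member was found in a second hairpin, Mir99b had 1.96 times the reads of Mir125a in replicate 1 and 4.52 times in replicate 2 (3.24 ± 1.81). The ratio was therefore smallest at the locus without a shared 5′ arm, and what uncounted miR-125b reads would make of the other ratios was not tested.

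**Figure D2:**
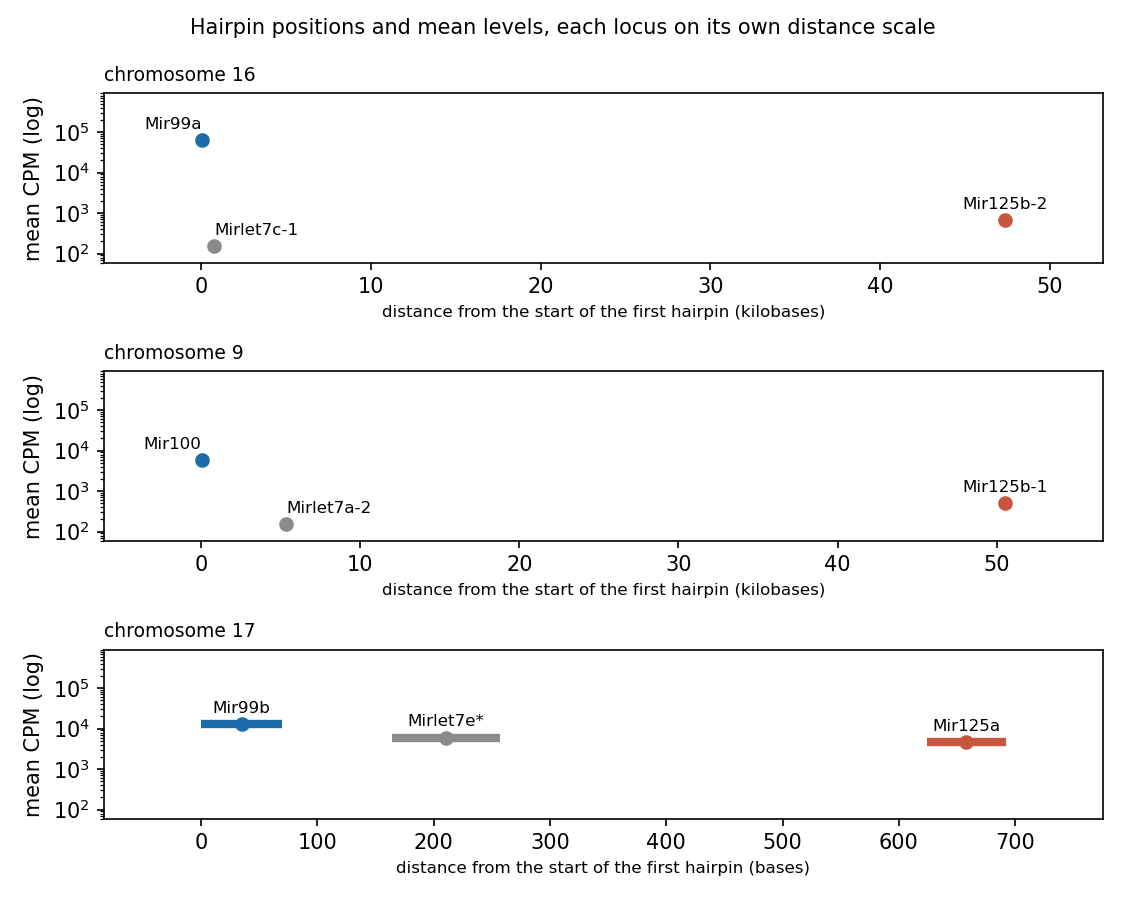
Mean level in CPM (log axis) against distance from the start of the first hairpin, 1 panel for each locus with its own distance scale in kilobases or bases. The loci on chromosomes 16 and 9 span 47408 and 50578 bases and the one on chromosome 17 spans 692 bases. Points mark the middle of each hairpin, bars its length where the scale shows it, and the asterisk reads opposite to Gm25927; the first hairpin is the highest in every panel.

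The let-7 hairpins in the middle of the loci were counted at unequal levels. Mirlet7c-1 had 1097 reads in replicate 1 and 1294 in replicate 2 (152 ± 14.3 CPM, SD, n = 2), and its 5′ arm was found in 2 hairpins. Mirlet7a-2 had 993 reads in replicate 1 and 1436 in replicate 2 (154 ± 36.4 CPM), and it shared 23 bases with Mirlet7a-1. Mirlet7e had no row in the tables. Reads on its strand, counted as opposite to Gm25927, numbered 50847 in replicate 1 and 42668 in replicate 2, or 5959 ± 869 CPM. Both let-7e arms were found as exact copies in 1 hairpin only, but with 1 mismatch allowed let-7e-5p also matched Mirlet7a-1 and Mirlet7a-2. On chromosome 17 the reads stood in the order Mir99b, let-7e position, Mir125a in both libraries.

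Relatives outside the loci were set beside the family. Mir351, on the X chromosome at 53053255-53053353 on the minus strand, carries the miR-125 seed and lies in the cluster of Mir322 and Mir503. It stood at 5235 and 4530 CPM in replicates 1 and 2 (4883 ± 498, SD, n = 2), a level that differed from that of Mir125a by less than the spread of Mir125a. With Mir351 included, genes of the miR-125 seed held 1.27% of sense-assigned reads in replicate 1 and 0.859% in replicate 2. Mir6367 and Mir6394 had 0 reads in both libraries, so their level in counted reads is at most the floor given above. Mir10a and Mir10b, the sequence relatives of miR-99/100 in the Hox clusters, stood at 29647 ± 2450 and 3373 ± 269 CPM. The miR-99/100 genes together had 2.32 and 2.70 times the reads of this pair in replicates 1 and 2.

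In the order of all genes by mean CPM, only Mir143, a smooth muscle miRNA gene, stood above Mir99a, and Mirlet7g stood just below it at 52768 ± 11516 CPM. Mir99b lay between Mirlet7d and Mir411, Mir100 between Mir20a and Mir744, and Mir125a between Mir151 and Mir369. Mir125b-2 lay between Mir674 and Mir341, and Mir125b-1 between Mir27a and Mir194-2. Apart from Mir143 above Mir99a, none of these neighbours differed from its member by more than the larger of their SDs. All ranks hold for counted reads, and how reads placed in several positions would change them was not tested.

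The gene most like each member was taken as the one outside the family with the smallest largest difference in log2(CPM + 1) over the 2 libraries. It was Mirlet7i for Mir99a (0.43), Mir411 for Mir99b (0.16), Mir744 for Mir100 (0.06), Mir674 for Mir125b-2 (0.11), Mir540 for Mir125b-1 (0.06) and Mir145a for Mir125a (0.22). Mir145a, a miRNA gene of smooth muscle, had 41123 reads in replicate 1 and 20279 in replicate 2. The reads of Mir125a were 1.16 times those of Mir145a in each library, and the log2 ratio of Mir145a between the libraries was 0.88. Mir143, the other smooth muscle marker, stood at a log2 ratio of -0.17, so the smooth muscle markers disagreed with each other. The part of smooth muscle in the Mir125a difference was not tested. With 2 libraries, the likeness of a gene to a member describes level and ratio only.

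**Figure D3:**
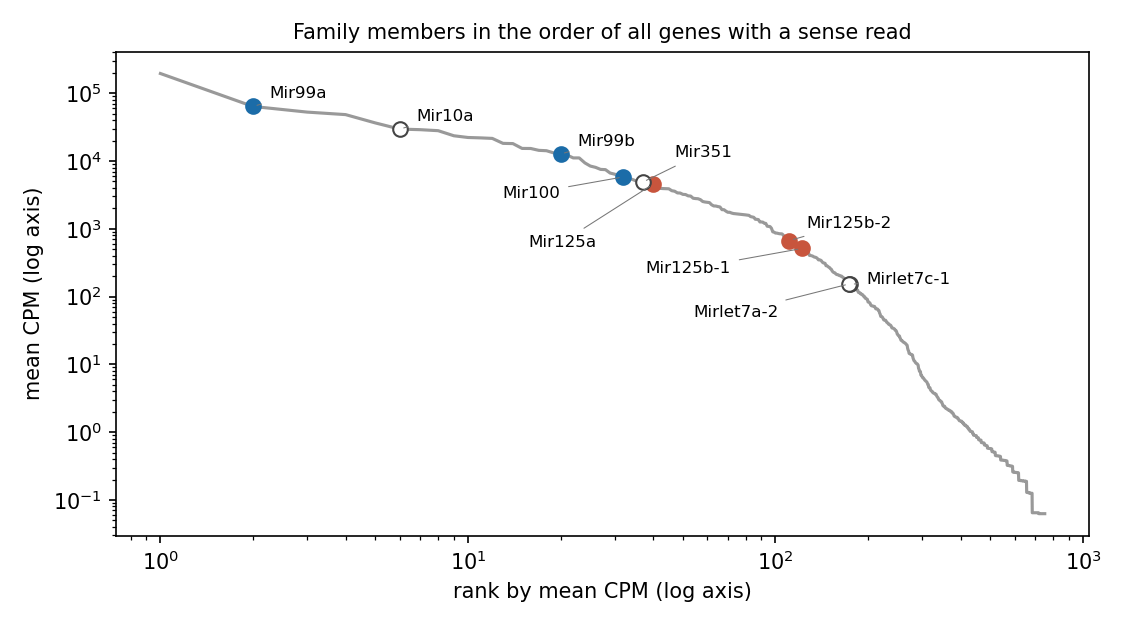
Mean CPM of every gene with a sense read against its rank (both axes log), with members as filled points (blue for miR-99/100, red for miR-125) and relatives or let-7 neighbours as open points. Members spread from rank 2 for Mir99a to rank 122 for Mir125b-1.

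The last question was how far each member differed between the libraries. Libraries were scaled with edgeR's TMM factors (trimmed mean of M values), and each pair of counts was given a two-sided exact binomial test, with Benjamini-Hochberg adjustment over the 289 genes whose mean reached 10 CPM. The test compares these libraries and not conditions. At an adjusted p under 0.05 and at least 2-fold, 7.96% of tested genes were called (7.27% as higher in replicate 1), and 0 of the 6 members, also with DESeq2 size factors. At an unadjusted p under 0.05 with no minimum fold, 5 of the 6 passed, against 222 of the 289 genes, so at this depth small ratios pass. The same 5 passed at an adjusted p under 0.05 without a minimum fold, as did 76.1% of all tested genes. The members' median absolute log2 ratio was 0.22, and that of all tested genes was 0.24.

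Mir125a was 1.86-fold higher in replicate 1 than in replicate 2, a log2 ratio of 0.89 (95% interval 0.87 to 0.92 from counting error), and 90.0% of tested genes had a smaller absolute ratio. At a minimum of 1.5-fold it was the 1 member called, where 20.1% of all tested genes were. Scaled by total sense reads its log2 ratio was 1.08, past 2-fold, but that scaling put the median of all tested genes at 0.21 in place of 0.02 and called 10% of them as higher in replicate 1.

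The miR-99/100 genes leaned slightly the other way, by log2 ratios of -0.22 for Mir99a, -0.23 for Mir100 and -0.31 for Mir99b, all under 2-fold. With total sense reads these shrank to -0.04, -0.04 and -0.13. Mir125b-2 stood at -0.10 with TMM and 0.08 with total sense reads, and Mir125b-1 at 0.05 (-0.01 to 0.12).

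The ratio between the outer hairpins of a locus moved most on chromosome 17. Mir99b and Mir125a lie within 692 bases, and their read ratio was 1.96 in replicate 1 and 4.52 in replicate 2, a comparison that no scaling of the libraries can change. The ratio of Mir99a to Mir125b-2 was 91.4 in replicate 1 and 99.4 in replicate 2, and that of Mir100 to Mir125b-1 was 10.4 in replicate 1 and 12.6 in replicate 2. The reads at let-7e between them had a log2 ratio of 0.12 (0.10 to 0.14), between those of Mir99b and Mir125a. Beside this difference, the summed striated muscle markers were 14.7-fold and the erythroid markers 1.87-fold higher in replicate 1 after TMM. Each sum rested mainly on 1 gene. Mir206 made up 94.7% of the striated muscle sum in replicate 1, with 24624 reads there and 797 in replicate 2, and without it the sum was 1.54-fold higher in replicate 1. Among the other striated muscle genes, Mir499 (log2 ratio 2.31) and Mir133b (3.10) were also higher in replicate 1, while Mir208b stood at 0.12. Of the erythroid genes, Mir451a stood at a log2 ratio of 1.20 and Mir144 at -0.38. All marker sums hold for counted reads only. The other sums, replicate 1 over replicate 2, went both ways. Liver stood at 1.33-fold, neuron at 1.10-fold and mesenchyme at 1.09-fold. Stratified epithelium stood at 0.66-fold, endocrine at 0.76-fold, and epithelium and endothelium each at 0.88-fold. Smooth muscle stood at 0.90-fold, leukocyte at 0.95-fold and gastrointestinal epithelium at 0.97-fold. The part of other tissue in the Mir125a difference was not tested. In bulk tissue, fewer cells of a type and less RNA per cell cannot be told apart.

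**Figure D4:**
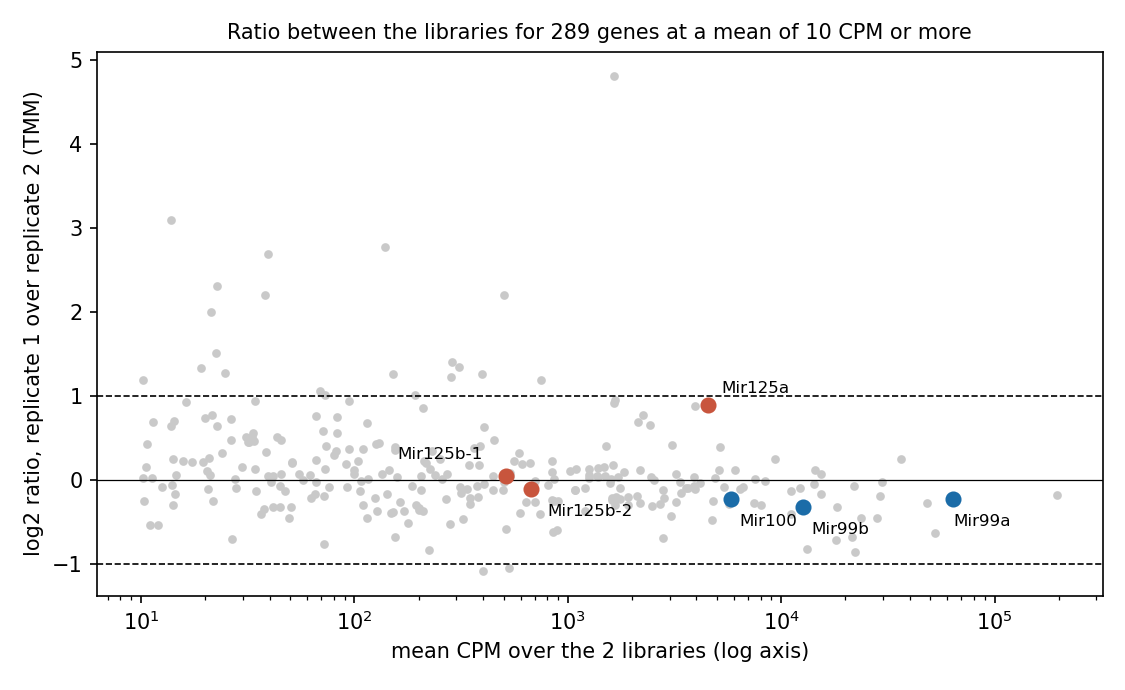
Log2 ratio of replicate 1 over replicate 2 (TMM) against mean CPM (log axis) for the 289 tested genes in grey, with miR-99/100 genes in blue, miR-125 genes in red and dashed lines at 2-fold. Mir125a at 0.89 lies just inside the upper line, and the other members lie between -0.31 and 0.05.

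Reads on the strand opposite to the members were nearly absent. Mir99a had 0 in replicate 1 and 1 in replicate 2, and the other 5 members had 0 in both libraries, each within the floor of 3 reads. Over all genes 3.35% of assigned reads in replicate 1 and 2.82% in replicate 2 lay on the opposite strand. These were 268011 and 231856 reads, of which 50847 and 42668 lay opposite to Gm25927, at Mirlet7e. Genes outside the family, such as Mirlet7g and Mirlet7i, also had 0 opposite reads in both libraries, so this was not particular to the members.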

How the data were processed

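Small RNA libraries from 2 pools of embryonic mouse stomach were compared. The authors deposited raw read counts per gene, regardless of strand and for each strand, with totals of unmapped, multiply placed, unassigned and ambiguous reads, none of which entered a library size or a test. The genome was mm10 and the gene annotation GENCODE M4, per the file headers. Aligner, counter, settings and read trimming: not given in the sources used here. Counts on the strand with the larger total were used. Multiply placed reads were 25.1% of the reads in replicate 1 and 25.2% in replicate 2.

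Gene identifiers were matched to GENCODE M21 on GRCm38, the assembly that mm10 names, and 1894 of 1973 matched. CPM used sense-assigned reads, and SDs are over the 2 libraries. TMM scaling on genes with a mean of at least 10 CPM came from edgeR 4.0.16 under R 4.3.3, and DESeq2 1.42.0 gave alternative size factors. Log2 ratios between the libraries had 0.5 added to each count, while ratios within a library and marker sums had nothing added. With 1 group, edgeR's quasi-likelihood test had no contrast, so each gene's pair of counts was given an exact binomial test (two-sided). It was checked on simulated counts with counting error alone, which cannot show how it behaves with further spread between pools. edgeR's estimate of that further spread, a common coefficient of variation, was 0.29. Mature sequences came from RefSeq on GRCm38.p6 and hairpins from GENCODE M21. Arms were searched as exact letters and again with 1 mismatch allowed. Python 3.11.15, scipy 1.17.1, pandas 2.3.3, numpy 2.4.6 and matplotlib 3.10.9 were used.

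The named genes were the members, the let-7 genes of their loci, genes sharing a seed, Mir10a and Mir10b, the genes next in order, the gene most alike and the cell type markers. The members and lists were chosen with earlier results of these data known. Alternatives were other scalings, filters, folds, denominators, strand counting, hairpin length, pseudocounts and each library left out.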

Additional observations from a re-analysis of the deposited data

Results flagged for a closer look

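One signal lay outside the sense counts used for the family. Reads opposite to Gm25927, on the strand and at the position of Mirlet7e between Mir99b and Mir125a, stood at 5959 ± 869 CPM (SD, n = 2), far above the floor of 3 reads, with 6574 CPM in replicate 1 and 5344 CPM in replicate 2. Listed as a gene, they would rank 32 by mean CPM. The tables list no Mirlet7e. Groups of 2 libraries are not tested for a sample far from the others, and the series holds 1 group.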

How the results depend on the processing

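Of 72 alternative values, 56 kept their direction and their side of the threshold, moved by less than the spread or, for counts, stayed within 1.5 times. Some of the 56 could not move, so this count does not measure stability. With 2 libraries, each library always lies within the SD of their mean, so shares and ratios with 1 library left out were bound to stay. The filter on low counts does not enter a log2 ratio. The family share of 8.82% became 8.55% with both strands counted, 4.37% of all reads of the library and 10.97% without Mir143 in the denominator. The miR-99/100 share of 8.25% became 7.99% with both strands counted and 4.09% of all reads, and the miR-125 share of 0.575% became 0.284% of all reads. Per kilobase of hairpin, the ratio of Mir99a to Mir125b-2 was 104 in place of 95.4. Members called as different between the libraries were 0 with TMM or DESeq2 scaling, 1 with total sense reads (Mir125a), 1 at 1.5-fold and 5 without a minimum fold. Over all tested genes the count of 23 became 58 at 1.5-fold, 220 without a minimum fold, 55 with every gene with a read tested and 12 at a mean of 100 CPM. The log2 ratio of Mir125b-2 changed sign, to 0.0816, with total sense reads, and that of Mir125a passed 2-fold at 1.08. The moves in denominator, fold and filter follow from the alternative itself. With 1 library left out, the family share was 8.81% to 8.84%, the miR-99/100 share 8.09% to 8.40%, the miR-125 share 0.406% to 0.743%, and the ratios over the third hairpin 91.4 to 99.4, 10.4 to 12.6 and 1.96 to 4.52. All 6 members stayed at 10 CPM in either library alone, which follows from reaching it in both. A minimum of 1000 CPM in both libraries was reached by 4 members. Over the 1973 genes, mean CPM was 1022 at rank 97 (Mir16-1) and 903 at rank 98 (Mir107). No between-library value exists with 1 library. No paired analysis was possible because the series holds 1 group. All members stood far above the floor of 3 reads. How reads placed in several positions bear on Mir125b-1, Mir125b-2, Mirlet7c-1 and Mirlet7a-2, on the marker genes and on the ranks was not tested.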
